A study of Homo sapiens with 26 samples.

Results

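The loci described here are all those listed for knockdown of ZBTB24 in HCT116, a human colorectal cancer cell line. They were chosen by 1 rule, presence in the authors' deposited table for that comparison, which holds 1965 loci. The 3 deposited expression tables of the series hold 7074 gene loci in all, counted over tables. The knockdown group (shZBTB24) carried a short hairpin RNA against ZBTB24, and the control group (shNT) carried a hairpin with no target. Each group had 3 RNA-seq libraries, and both were made by lentiviral infection and kept under puromycin at 0.75 µg/mL, so virus and drug are shared by both groups. The labels give neither the hairpins' sequences nor their number, and they do not say whether the libraries of a group were grown as separate cultures. The authors' p-values may thus measure technical spread alone. A pair of further comparisons served only as other readouts. These are clonal HCT116 lines that stably express FLAG-ZBTB24 (2 libraries) against lines with the tag alone (2 libraries), also lentiviral and puromycin-selected, and 1 library of a DNMT3B knockout line against 1 of wild-type cells with no tag or hairpin.

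ZBTB24 is a zinc finger protein that binds DNA, and its loss causes a form of ICF syndrome, in which immunodeficiency goes with instability of the satellite DNA beside centromeres. DNMT3B, a methyltransferase that sets new DNA methylation marks, is mutated in another form of the same syndrome. Several results below concern the interferon response, in which sensors of foreign nucleic acid or a secreted interferon lead to the activation of STAT and IRF transcription factors. These bind the interferon-stimulated response element (ISRE) in promoters of antiviral genes.

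Each group has 1 FPKM value per locus (fragments per kilobase of transcript, scaled to the library's mapped fragments), pooled over its libraries by the authors. No value per library, standard deviation or depth was therefore at hand, and every FPKM given below is the authors' pooled value. The log2 fold change is log2 of shZBTB24 over shNT and was recomputed from these values. A locus is said to have risen or fallen where q in the authors' deposited table was under 0.05, and is otherwise only called higher or lower. The listed loci had passed a filter. Every one had an absolute log2 fold change above 0.50, the highest p was 0.0549 in the authors' deposited table, and the higher of the group values was at least 0.585 FPKM. A count of listed members is therefore set in part by that filter. Of the 1965 loci, 1907 had an unadjusted p under 0.05 in the authors' deposited table, so for a listed member such a p adds little. Of the 1965 loci, 1081 were higher and 884 lower with the knockdown. Of these, 240 rose (12.2%) and 193 fell (9.82%), 433 (22%) in either direction, and the shares found for single gene groups are to be read against these. The median log2 fold change was 1.13 among risen and -1.06 among fallen loci. It was 0.79 among all higher and -0.76 among all lower listed loci, because the filter leaves out small changes. Medians of single lists are to be read against these. ZBTB24 itself and the other ICF syndrome genes, DNMT3B, CDCA7 and HELLS, were not listed. ZBTB24 thus did not pass the authors' filter or was not tested, no value here shows that its RNA was lowered, and knockdown below means only the group with that hairpin. The colon epithelial markers CDH1 (46.3 and 23.2 FPKM) and CDX2 (6.90 and 18.8 FPKM) were listed, and 0 of 17 annotated markers of immune cells, fibroblasts and endothelium were. Listing means a change past the filter, so the absence of a marker does not show that its cell type was absent. In bulk RNA, a change in the number of cells of a state and a change of RNA per cell cannot be told apart.

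**Figure D1:**
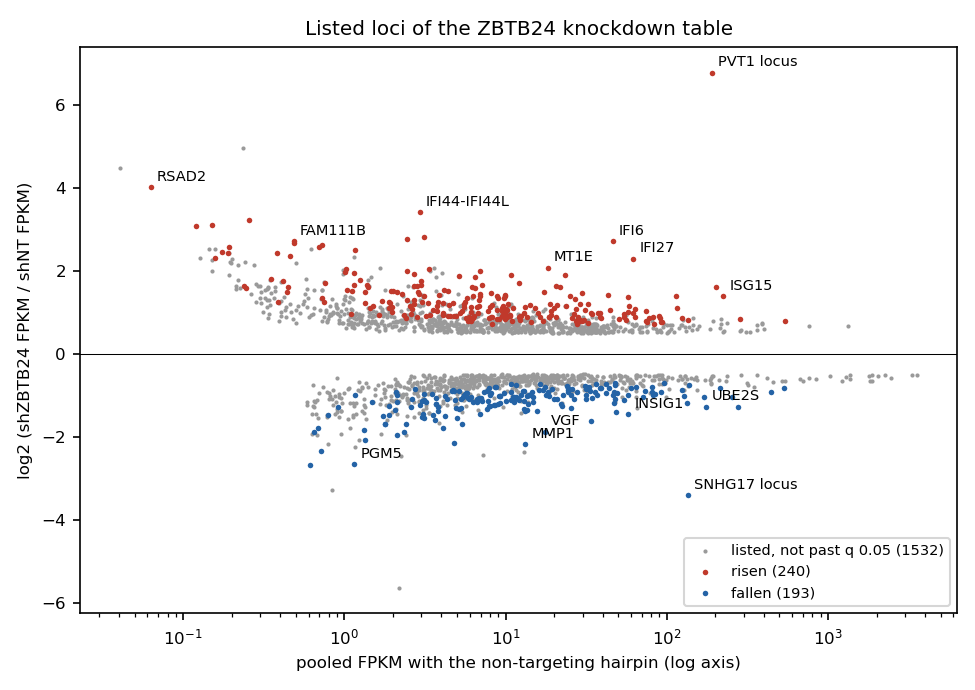
Each point is 1 of the 1965 listed loci, with the pooled shNT FPKM on a log axis across and the log2 ratio of shZBTB24 over shNT up. The 240 risen loci are red and the 193 fallen loci blue, the 1532 other listed loci are grey, and the empty band around 0 is the authors' filter on fold change.

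Promoter sequences are shown first for the interferon-stimulated genes, because this was the group with the most risen loci and because its members' promoters share a motif. They are the RefSeq sequences on GRCh38.p14, 250 bases before to 50 bases after the annotated start, each written 5′ to 3′ along the gene's strand, and 1434 of the 1875 loci with a single gene symbol were matched to one. Capitals mark every match, on either strand, to GAAANNGAA, the core of the ISRE, and overlapping matches run together. RSAD2 (chr2:6865635-6865934, plus strand) is shown as the largest rise of the group and DTX3L (chr3:122564088-122564387, plus strand) because it lies head to head with PARP9, which rose too. IFI6 (chr1:27672143-27672442, minus strand), IFIT1 (chr10:89392373-89392672, plus strand) and ISG15 (chr1:1013247-1013546, plus strand) are shown for their several matches. IFIH1 (chr2:162318635-162318934, minus strand) and OAS3 (chr12:112938224-112938523, plus strand) are shown because they also had a ZBTB24 peak nearby.
RSAD2: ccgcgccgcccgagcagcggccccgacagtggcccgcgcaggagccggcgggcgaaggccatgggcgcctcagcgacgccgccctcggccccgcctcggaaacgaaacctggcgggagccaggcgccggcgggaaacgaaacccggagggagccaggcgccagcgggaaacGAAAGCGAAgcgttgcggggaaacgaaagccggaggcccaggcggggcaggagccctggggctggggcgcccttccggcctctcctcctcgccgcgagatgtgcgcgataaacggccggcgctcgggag
DTX3L: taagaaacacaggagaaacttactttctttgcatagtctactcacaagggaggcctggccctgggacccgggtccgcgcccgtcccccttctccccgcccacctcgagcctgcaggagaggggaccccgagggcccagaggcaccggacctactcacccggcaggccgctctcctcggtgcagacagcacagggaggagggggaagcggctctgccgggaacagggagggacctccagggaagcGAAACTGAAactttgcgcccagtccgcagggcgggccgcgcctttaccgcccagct
IFI6: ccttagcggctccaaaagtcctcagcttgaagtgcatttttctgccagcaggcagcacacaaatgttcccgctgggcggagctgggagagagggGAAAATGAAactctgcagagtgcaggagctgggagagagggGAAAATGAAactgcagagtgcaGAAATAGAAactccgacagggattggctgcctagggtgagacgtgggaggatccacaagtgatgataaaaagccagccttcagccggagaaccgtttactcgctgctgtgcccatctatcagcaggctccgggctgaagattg
IFIT1: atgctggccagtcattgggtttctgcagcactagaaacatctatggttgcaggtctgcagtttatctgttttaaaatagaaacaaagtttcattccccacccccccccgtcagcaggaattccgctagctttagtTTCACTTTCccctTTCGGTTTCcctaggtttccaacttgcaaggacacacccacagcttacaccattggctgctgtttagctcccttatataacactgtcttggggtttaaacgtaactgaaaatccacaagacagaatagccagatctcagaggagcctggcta
ISG15: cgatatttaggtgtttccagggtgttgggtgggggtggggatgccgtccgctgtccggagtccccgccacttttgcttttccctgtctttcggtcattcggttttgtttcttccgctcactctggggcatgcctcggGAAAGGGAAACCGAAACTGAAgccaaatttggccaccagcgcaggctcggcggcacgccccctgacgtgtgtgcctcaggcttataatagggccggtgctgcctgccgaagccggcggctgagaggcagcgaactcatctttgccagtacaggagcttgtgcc
IFIH1: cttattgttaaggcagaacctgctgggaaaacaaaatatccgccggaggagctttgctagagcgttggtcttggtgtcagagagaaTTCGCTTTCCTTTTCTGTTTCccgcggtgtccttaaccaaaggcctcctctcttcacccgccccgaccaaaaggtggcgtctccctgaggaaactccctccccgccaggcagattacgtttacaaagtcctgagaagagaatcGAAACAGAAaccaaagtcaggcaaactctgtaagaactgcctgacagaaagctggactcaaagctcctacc
OAS3: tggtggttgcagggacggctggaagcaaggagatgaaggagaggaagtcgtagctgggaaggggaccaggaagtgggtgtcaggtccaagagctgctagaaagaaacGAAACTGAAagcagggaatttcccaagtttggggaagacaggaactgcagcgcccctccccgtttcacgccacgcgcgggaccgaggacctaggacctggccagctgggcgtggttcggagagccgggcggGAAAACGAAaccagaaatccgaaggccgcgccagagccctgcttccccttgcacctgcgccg
RSAD2 and DTX3L hold 1 match each, IFIT1 and OAS3 hold 2, IFI6 and ISG15 hold 3 and IFIH1 holds 4. The match farthest from the start, in IFIH1, begins at position -164 from it. The ISG15 matches overlap, and the 3 of them begin between positions -113 and -101.

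The same letters were found in the promoters of 28 of the 43 listed interferon response loci with a sequence (65.1%) and of 20 of the 29 that rose (69.0%). Among all 27305 promoters of the table the share was 8.29%. It was 19.0% of 179 for all risen loci, 4.62% of 130 for fallen loci and 6.22% of 1125 for listed loci that did neither. Outside the interferon list, 14 of 150 risen loci (9.33%) held a match, near the share of all promoters. These were FAM111A, MYD88, UTP14A, ZDHHC16, MGAT2, TAP2, KIN, ARPC3, ARHGAP10, CYB5B, C19orf66, B2M, TM9SF2 and LAP3. A match of letters describes the promoter and is not a measured binding site.

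The interferon response list held 112 annotated genes, of which 54 were listed, 52 of them higher. Of these 35 rose and 1 fell, against 12.2% and 9.82% of all listed loci. The median log2 fold change of the 54 was 1.31, while that of all higher listed loci was 0.79. The median of all listed loci, 0.55, lies at the edge of the band that the filter empties. The list was chosen with earlier results of these data known, so its counts are a description. Its members are given by role from ligand to effector.

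At the top of the pathway few genes were listed. Of the 8 annotated interferon ligand genes, IFNL1, an interferon of the lambda type, was the 1 that was listed, at 0.337 FPKM in shNT and 1.01 FPKM in shZBTB24 (q = 0.353 in the authors' deposited table). IFNLR1, a chain of the receptor for that ligand, was at 6.21 and 4.15 FPKM (q = 0.246 in the authors' deposited table). Neither passed the threshold, and no other receptor or receptor kinase of the 9 on the list appeared. All 5 listed sensor genes were higher and 3 rose. IFIH1, which encodes the RNA sensor MDA5, rose from 5.13 to 18.7 FPKM, 3.64 times its control level. DDX58, which encodes the RNA sensor RIG-I, rose from 8.80 to 23.0 FPKM, and DDX60, a related helicase, from 3.00 to 9.36 FPKM. TLR3, a receptor for double-stranded RNA in endosomes, was at 0.126 and 0.626 FPKM without passing (q = 0.073 in the authors' deposited table).

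Among transcription factors of the response, IRF7 and IRF9 rose. IRF7, which drives interferon genes, went from 20.6 to 38.1 FPKM, and IRF9, a DNA-binding part of the complex that acts at the ISRE, from 16.4 to 30.4 FPKM, with log2 fold changes of 0.89 each. The feedback genes did not share a direction. USP18, which removes ISG15 from proteins and dampens the receptor, rose from 3.02 to 7.18 FPKM, and TRIM21, a ubiquitin ligase, from 18.6 to 34.5 FPKM. SOCS3, an inhibitor of cytokine receptor signalling, fell from 9.20 to 4.55 FPKM (q = 0.0206 in the authors' deposited table) and was the 1 fallen member of the list.

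Effector families carried the largest changes. The OAS enzymes make a second messenger that switches on RNA decay, and OAS1 rose from 3.13 to 22.1 FPKM, or 7.05 times, while OAS3 rose from 6.44 to 23.3 FPKM. OAS2 (0.193 and 0.715 FPKM) and OASL (28.6 and 50.5 FPKM) were higher without passing (q = 0.066 and 0.0591 in the authors' deposited table). Among the IFIT proteins, which bind foreign RNA ends, IFIT3 rose from 0.728 to 4.43 FPKM, IFIT1 from 7.10 to 22.5 FPKM and IFIT2 from 1.14 to 3.59 FPKM, and IFIT5 was at 3.88 and 6.73 FPKM (q = 0.0544 in the authors' deposited table). IFI44 and IFI44L share 1 locus, whose level was 2.94 FPKM in shNT and 31.1 FPKM in shZBTB24, a rise to 10.6 times the control, and its reads cannot be assigned to either gene.

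IFI6, IFI27 and ISG15 had the highest knockdown levels among the members that rose. The locus of IFITM1 and IFITM2 (195 and 338 FPKM) and LGALS3BP (237 and 394 FPKM) were also high but did not pass. IFI6, a membrane protein that limits viral replication, rose from 46.0 to 302 FPKM and IFI27 from 61.7 to 302 FPKM. ISG15, a ubiquitin-like protein that is attached to other proteins, rose from 224 to 587 FPKM (log2 fold change 1.39). Its conjugating enzyme UBE2L6 rose from 19.1 to 36.2 FPKM and HERC6 from 2.70 to 6.62 FPKM, while the human ligase HERC5 stood at 5.59 and 8.17 FPKM (q = 0.284 in the authors' deposited table). All 4 listed members of the PARP and DTX3L group rose. DTX3L, a ubiquitin ligase, went from 3.34 to 13.7 FPKM and its partner PARP9 from 6.94 to 27.6 FPKM, log2 fold changes of 2.04 and 1.99.

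Of 37 further antiviral effectors, 20 were listed, all 20 were higher and 11 rose. RSAD2, which encodes viperin, had the largest rise in the list, from 0.0629 to 1.01 FPKM (log2 fold change 4.01, q = 0.034 in the authors' deposited table). Its control level lies far under 1 FPKM, and with 1 FPKM added to both groups its log2 fold change would be 0.92. SAMD9 rose from 2.44 to 16.5 FPKM and NMI, which binds STAT proteins, from 1.38 to 4.33 FPKM. SP110 (9.94 to 26.3 FPKM) and SP100 (26.9 to 67.6 FPKM), both of PML nuclear bodies, rose as well. MX1, a GTPase that traps viruses, rose from 0.743 to 1.77 FPKM, and BST2, which tethers virus particles to the cell, from 58.5 to 129 FPKM. ADAR, which edits double-stranded RNA, was at 53.6 and 78.6 FPKM and did not pass (q = 0.167 in the authors' deposited table).

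**Figure D2:**
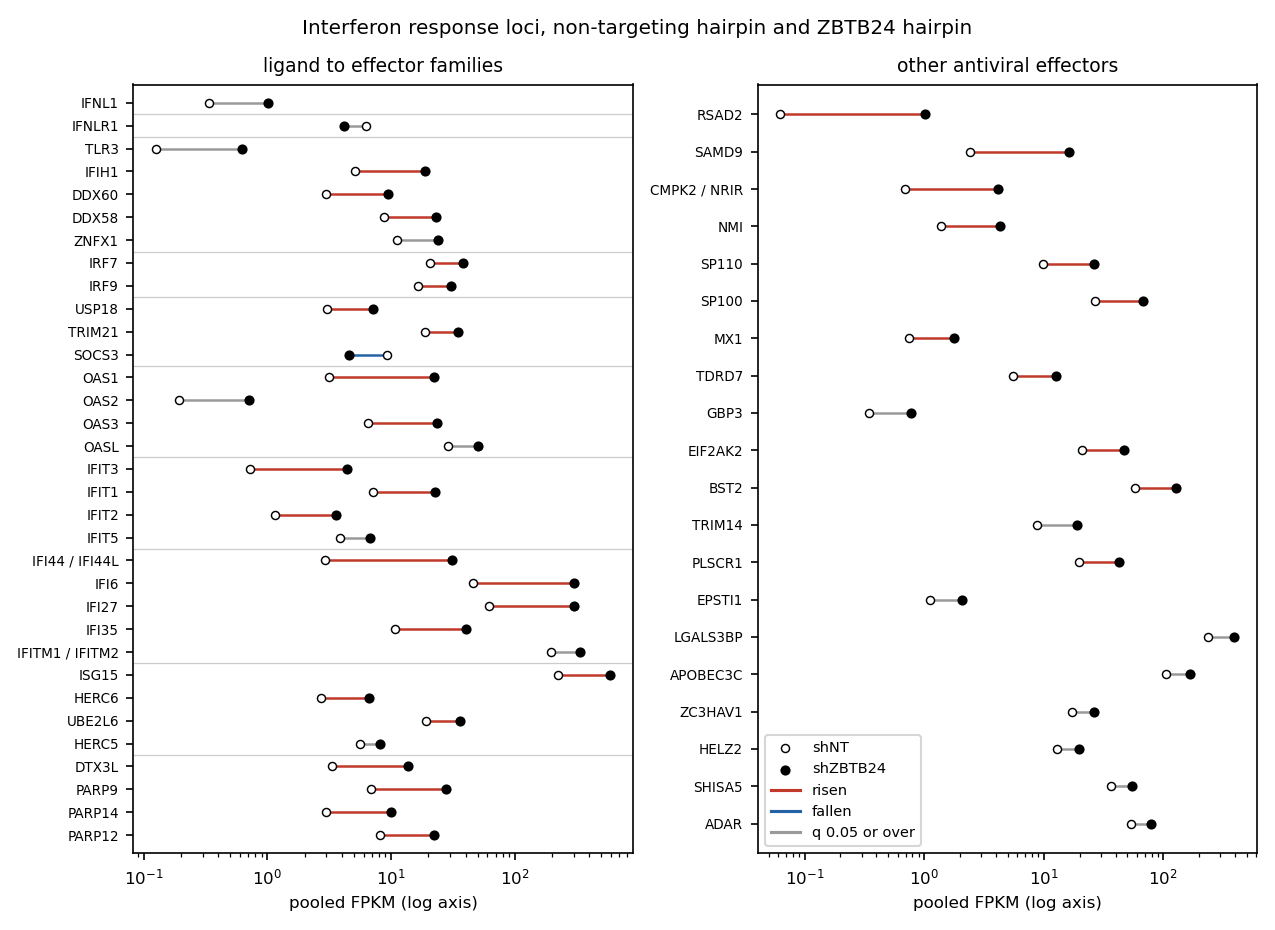
Open circles give the pooled shNT FPKM and filled circles the pooled shZBTB24 FPKM of the listed interferon response loci reported here on a log axis, 1 row per locus, with grey lines between roles on the left. Connecting lines are red for risen loci, blue for SOCS3 and grey where q was 0.05 or over, and all circles but those of IFNLR1 and SOCS3 move to the right.

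Lists of related immune genes held fewer listed loci. All 5 listed genes of MHC class I presentation were higher and 2 rose in the authors' deposited table. B2M, the light chain of MHC class I, rose from 538 to 932 FPKM and TAP2, a peptide transporter, from 12.5 to 23.3 FPKM, while TAP1 (10.5 and 16.9 FPKM) did not pass (q = 0.169 in the authors' deposited table). Of 40 NF-kB and chemokine genes 7 were listed, 4 higher and 3 lower, and 1 rose (14.3%, against 12.2% of all listed loci). That was BIRC3, an inhibitor of cell death, from 3.76 to 8.38 FPKM. CCL20 (1.69 and 0.443 FPKM) and CXCL8 (7.98 and 5.12 FPKM), both chemokines, were lower without passing (q = 0.18 and 0.31 in the authors' deposited table).

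Every listed gene of DNA replication was higher. Of 83 annotated S phase genes 24 were listed, all 24 higher, and 9 rose. The median log2 fold change was 0.92, against 0.79 for all higher listed loci. The MCM proteins form the helicase that opens DNA at origins, and MCM4 rose from 6.46 to 19.5 FPKM, MCM5 from 8.27 to 15.3 FPKM and MCM10, an activating factor, from 1.88 to 4.05 FPKM. MCM2 (6.64 and 9.77 FPKM), MCM3 (16.4 and 23.5 FPKM) and MCM6 (10.5 and 17.6 FPKM) were higher without passing. GINS2, another helicase component, rose from 5.73 to 14.6 FPKM. PCNA, the clamp that holds the polymerase, rose from 53.9 to 104 FPKM and FEN1, which trims Okazaki fragments, from 7.96 to 17.3 FPKM. CDC25A, the phosphatase that lets cells enter S phase, rose from 1.40 to 4.22 FPKM. FAM111B, a protease of replicating cells, had the largest change of the list, from 0.484 to 3.15 FPKM (log2 fold change 2.70), and its neighbour FAM111A rose from 2.12 to 5.92 FPKM. None of the 6 listed genes of chromatin assembly and repair passed, among them BRCA1 (1.84 and 3.39 FPKM) and EXO1 (2.68 and 5.40 FPKM), with q = 0.123 and 0.0766 in the authors' deposited table.

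Genes of mitosis lay mostly on the other side. Of 81 annotated G2 and M phase genes 20 were listed, 18 lower and 2 higher. Their median log2 fold change was -0.81, against -0.76 for all lower listed loci. Of these 3 fell and 1 rose, a called share of 20%, close to the 22% of all listed loci. The 3 that fell all work with the anaphase-promoting complex, which marks mitotic proteins for destruction, as enzymes or activator and not as subunits. UBE2S, an enzyme that extends the ubiquitin chain, fell from 175 to 72.1 FPKM, UBE2C, which starts it, from 73.5 to 39.4 FPKM and the activator CDC20 from 92.6 to 49.0 FPKM (q = 0.00493, 0.027 and 0.0113 in the authors' deposited table). The 1 riser was MYBL2, a transcription factor of cell cycle genes, from 9.47 to 17.9 FPKM. AURKB (15.6 and 8.80 FPKM), KIFC1 (20.0 and 11.4 FPKM) and CENPA, the histone of centromeres (12.5 and 4.64 FPKM), were lower without passing (q = 0.104, 0.0614 and 0.152 in the authors' deposited table).

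Promoters of these genes are shown for CDC25A (chr3:48188368-48188667, minus strand), with capitals for TTTGGCGC, the core of an E2F site, and for CDC20 (chr1:43358731-43359030, plus strand), with capitals for TTTGAA, the cell cycle homology region, from the same RefSeq table and searched on both strands. They stand for 1 locus that rose and 1 that fell.
CDC25A: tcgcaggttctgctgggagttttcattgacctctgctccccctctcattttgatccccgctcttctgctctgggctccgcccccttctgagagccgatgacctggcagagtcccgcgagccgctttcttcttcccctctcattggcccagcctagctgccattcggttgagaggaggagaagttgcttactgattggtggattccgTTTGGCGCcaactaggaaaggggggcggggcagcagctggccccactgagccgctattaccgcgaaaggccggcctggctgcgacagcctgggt
CDC20: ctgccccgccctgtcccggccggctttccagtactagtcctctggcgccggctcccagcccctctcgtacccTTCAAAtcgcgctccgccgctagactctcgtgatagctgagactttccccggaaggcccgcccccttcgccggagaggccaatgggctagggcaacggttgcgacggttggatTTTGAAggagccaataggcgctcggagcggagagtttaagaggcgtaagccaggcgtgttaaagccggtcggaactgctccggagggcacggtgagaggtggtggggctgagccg
The E2F letters were in 3 of 17 listed S phase promoters (17.6%), those of CDC25A, E2F2 and MCM6, and in 0.659% of all 27305 promoters. The TTTGAA letters were in 9 of 17 listed G2 and M phase promoters (52.9%) and in 15.4% of all promoters, and of the 2 fallen members with a sequence CDC20 held them.

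The genes of amino acid supply and of the unfolded protein response form the largest group of lower loci. The list holds outputs of ATF4, the transcription factor that is made when amino acids run short or proteins misfold. It also holds chaperones and other genes of the unfolded protein response, such as ERN1. Of 72 annotated genes 31 were listed, 31 of them lower, and 9 fell. The median log2 fold change was -0.75, against -0.76 for all lower listed loci. ASNS, which makes asparagine, fell from 255 to 124 FPKM. SLC7A11, which imports cystine, fell from 6.25 to 2.81 FPKM, and SLC7A1, which imports arginine and lysine, from 31.8 to 18.2 FPKM. AARS, the alanine tRNA synthetase, fell from 215 to 122 FPKM. TRIB3, which feeds back on ATF4, fell from 57.5 to 29.0 FPKM, and CEBPG, a partner of ATF4, from 38.9 to 21.9 FPKM. ERN1, which encodes the stress sensor IRE1, fell from 8.02 to 3.33 FPKM, while the chaperone HSPA5 was at 838 and 549 FPKM (q = 0.248 in the authors' deposited table). Among the members that did not pass were SLC6A9, which moves glycine, at 7.22 and 1.33 FPKM, and PHGDH, the first enzyme of serine synthesis, at 103 and 57.7 FPKM (q = 0.226 and 0.228 in the authors' deposited table). The letters TGATGNAAT, the C/EBP-ATF response element, were in 0 of 26 listed promoters and in 1.02% of all promoters of this length.

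Sterol and lipid genes followed the same direction. Of 42 annotated genes 10 were listed, 10 of them lower, and 5 fell, with a median log2 fold change of -1.01. INSIG1, which holds the sterol sensor in the endoplasmic reticulum, fell from 57.4 to 20.9 FPKM (log2 fold change -1.46, q = 0.00493 in the authors' deposited table). The locus of SREBF1, a transcription factor of lipid genes, and MIR6777 fell from 80.7 to 42.7 FPKM. MSMO1, an enzyme of cholesterol synthesis, fell from 54.4 to 25.2 FPKM. ABCG1, which exports cholesterol, fell from 0.714 to 0.139 FPKM, both under 1 FPKM. SQLE (56.6 and 38.6 FPKM) and SREBF2 (68.7 and 41.9 FPKM) were lower without passing (q = 0.144 and 0.0544 in the authors' deposited table).

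**Figure D3:**
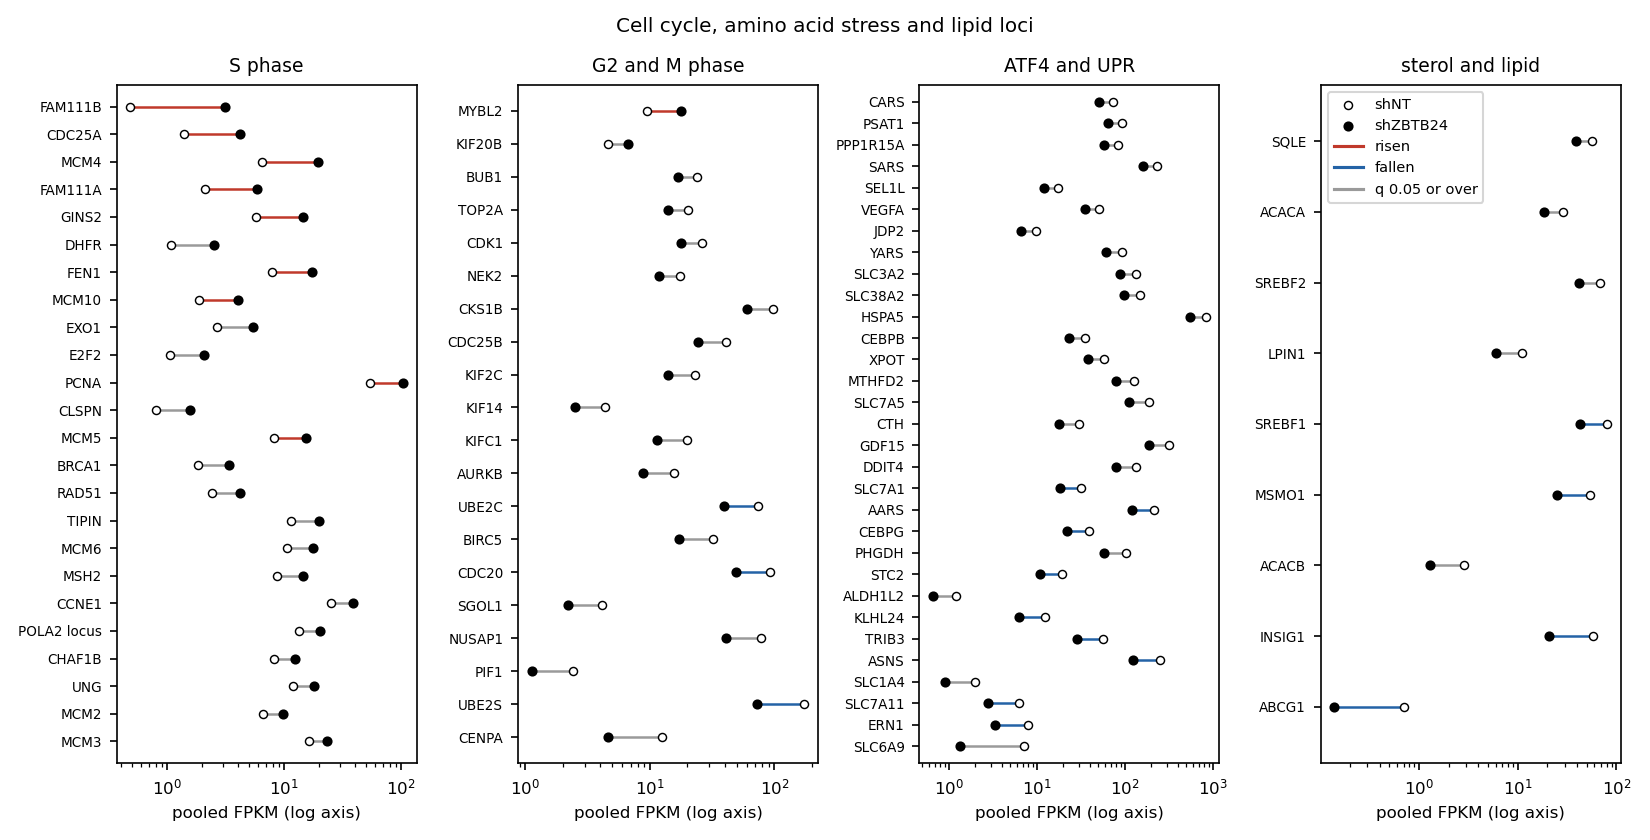
Pooled FPKM on log axes of the listed S phase (24), G2 and M phase (20), ATF4 and unfolded protein response (31) and sterol and lipid loci reported here, with open circles for shNT and filled circles for shZBTB24, and SREBF1, POLA2 and CKS1B standing for loci with further symbols. Red lines mark risen, blue lines fallen and grey lines other loci, so the filled circles lie to the right for every S phase locus and to the left for every ATF4 and lipid locus.

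Growth factor signalling genes split. Of 43 genes of ERBB ligands, receptors and ERK outputs 13 were listed, of which 2 rose and 4 fell. NRG1, a ligand of ERBB receptors, rose from 0.151 to 1.29 FPKM and RASGRP3, which activates RAS proteins, from 0.255 to 2.36 FPKM (log2 fold changes 3.10 and 3.21). Both had control levels under 1 FPKM. RASGRP2, its relative, fell from 8.98 to 3.90 FPKM. DUSP5, a phosphatase that switches ERK off, fell from 275 to 113 FPKM, VGF, a neuropeptide precursor, from 17.5 to 4.77 FPKM and MMP1, a collagenase, from 13.2 to 2.89 FPKM. AREG (13.5 and 6.94 FPKM) and EREG (51.3 and 80.2 FPKM), both ligands of the EGF receptor, lay on opposite sides without passing (q = 0.0518 and 0.14 in the authors' deposited table). Of the immediate early genes, 8 of the 10 listed were lower and 1 fell (10%, against 9.82% of all listed loci). That was ARC, from 14.0 to 7.09 FPKM, while FOS was at 187 and 115 FPKM (q = 0.127 in the authors' deposited table).

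Proteases and matrix genes moved in both directions. On that list 10 loci were present, and 5 of them rose while 3 fell. The kallikrein proteases KLK10 (20.4 to 63.3 FPKM) and KLK6 (24.9 to 65.4 FPKM) rose, and KLK5, from 2.70 to 8.37 FPKM, rose in the same gene cluster on chromosome 19. Of the 15 kallikreins, a family added after the values were seen, 4 were listed, all higher, and 3 rose. The integrin chains ITGA2 (27.9 to 47.1 FPKM) and ITGB8 (0.385 to 0.917 FPKM) and SERPINB5 (27.8 to 45.9 FPKM) also rose. The matrix proteoglycan VCAN fell from 2.60 to 1.07 FPKM and TIMP3, an inhibitor of matrix proteases, from 5.46 to 2.66 FPKM. Of 8 listed collagens 6 were lower and 3 fell. These were COL6A3 (3.14 to 1.08 FPKM), COL18A1 (20.9 to 9.84 FPKM) and COL12A1 (2.73 to 1.51 FPKM). All 6 listed keratins were lower, and KRT14 fell from 3.01 to 1.05 FPKM.

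Epithelial and mesenchymal regulators did not move as 1 group. CDX2, the transcription factor of intestinal identity, rose from 6.90 to 18.8 FPKM, OVOL1 from 8.87 to 15.9 FPKM and ELF5 from 0.120 to 1.02 FPKM. CDH1, which encodes E-cadherin, fell from 46.3 to 23.2 FPKM, and SNAI2, a repressor of E-cadherin, fell from 2.41 to 0.743 FPKM. SNAI1 was at 42.9 and 26.9 FPKM (q = 0.0859 in the authors' deposited table). The desmosome cadherins DSC2 (10.4 to 23.7 FPKM) and DSC3 (2.42 to 4.38 FPKM), which are neighbours on chromosome 18, rose. In smaller lists, the Wnt feedback gene RNF43 rose from 15.9 to 31.5 FPKM, the p53 target SESN1 from 4.79 to 9.04 FPKM and the glucose transporter SLC2A1 from 74.7 to 129 FPKM. Each was the 1 called member of its list of Wnt, p53 or hypoxia and glycolysis genes. The called shares of these lists were 16.7%, 14.3% and 11.1%, against 22% of all listed loci. Of the TGF-beta and YAP targets 5 were listed and 0 were called in the authors' deposited table. All 5 had an unadjusted p under 0.05, as did 1907 of all 1965 listed loci. From the NRF2 targets 4 were listed and SLC7A11 was the 1 called (25%). No gene of the germline and cancer-testis list (37 annotated) was listed at all.

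Genes named ZNF, most of which encode zinc finger repressors, were higher in 65 of 77 listed cases. The median log2 fold change was 0.82, and 8 rose (10.4%), close to the 12.2% of all listed loci, while 0 fell and 10 of the 12 lower ones had an unadjusted p under 0.05. Of the 35 on chromosome 19, 33 were higher and 3 rose. The 8 were ZNF234 (0.461 to 2.36 FPKM), ZNF782 (0.353 to 1.23 FPKM), ZNF107 (2.81 to 8.69 FPKM), ZNF594 (0.245 to 0.729 FPKM), ZNF655 (8.91 to 22.4 FPKM), ZNF302 (1.70 to 4.09 FPKM), ZNF776 (3.39 to 6.47 FPKM) and ZNF622 (14.4 to 24.4 FPKM). The levels of this group were low, with a median of 2.16 FPKM in shNT and 3.91 FPKM in shZBTB24. How reads shared between related ZNF genes were counted was not stated. Loci with a DNMT3B peak were fewer among them, 12 of 77 (15.6%, 95% Wilson interval 9.15% to 25.3%), than among all listed loci that were not called (33.7%, 31.4% to 36.2%). Peaks were counted over the gene span, whose median was shorter for the ZNF loci, 20495 bp against 28751 bp. The part of span in this was not tested.

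Of 13 listed subunits of oxidative phosphorylation 12 were higher and 4 rose. NDUFB3 (44.2 to 92.0 FPKM), NDUFB1 (33.9 to 66.5 FPKM), COX7C (286 to 508 FPKM) and ATP5G1 (92.7 to 156 FPKM) rose, and COX6B2, the testis form of a subunit of cytochrome oxidase, fell from 7.65 to 3.05 FPKM. Of 14 listed loci of ribosomal protein names 13 were lower, all 13 with an unadjusted p under 0.05 and 0 with q under 0.05 in the authors' deposited table, and RPS27L, a p53 target with such a name, rose from 38.3 to 71.3 FPKM. RPL3 was at 1827 and 1165 FPKM (q = 0.157 in the authors' deposited table). All 16 listed proteasome genes, a list added after the values were seen, were higher and 3 rose (18.8%, against 12.2% of all listed loci). These were PSMA3, PSMG1 and PSMD12, the last from 54.5 to 99.9 FPKM. The metallothioneins MT1E and MT2A, which bind zinc and copper, rose from 18.3 to 77.1 and from 114 to 297 FPKM. HOXB7, a homeobox gene, rose from 9.48 to 20.4 FPKM. From the DNA methylation list TDG, a glycosylase that takes part in demethylation, rose from 6.36 to 11.8 FPKM, and ZBTB38 (3.37 and 5.10 FPKM) and MBD2 (35.7 and 51.0 FPKM), which bind methylated DNA, did not pass (q = 0.168 and 0.288 in the authors' deposited table).

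Clock genes were looked at after their values had been seen. Of 26 genes of the circadian clock 13 were listed, 12 of them lower, and 5 fell while 1 rose. The locus of PER1, a repressor of the clock, and MIR6883 fell from 48.2 to 18.3 FPKM. NR1D1, a nuclear receptor of the clock, fell from 81.6 to 41.3 FPKM and DBP, an output gene, from 47.0 to 20.6 FPKM. TEF and BHLHE41 fell too, and CIPC, which inhibits CLOCK, rose from 6.07 to 10.6 FPKM. Nothing in the labels gives the time or density at which cells were collected.

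Loci with non-coding RNA held the extremes among called loci. The locus of PVT1 with MIR1204 and MIR1206 (hg19 chr8:128806570-129113515) rose from 190 to 20731 FPKM, and the locus of SNHG17 with SNORA71A, SNORA71B and SNORA71C (hg19 chr20:37049183-37064018) fell from 136 to 12.8 FPKM. Both hold genes of small RNAs, whose short length makes FPKM unstable, and the small RNA and its host cannot be told apart. Of 33 loci with such a gene 3 rose and 7 fell. The host locus of SNHG1 rose from 202 to 617 FPKM, whereas SNHG16 fell from 84.4 to 43.2 FPKM and the locus of GAS5 from 529.6 to 301 FPKM. LINC00342 rose from 1.16 to 6.60 FPKM and LINC00668 fell from 3.78 to 1.44 FPKM, 2 of the 5 called loci among 21 listed LINC RNAs. That called share, 23.8%, was close to the 22% of all listed loci.

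Of the 433 called loci, 146 risen and 144 fallen ones belong to none of the lists. Among the risen were NME5 (0.487 to 3.12 FPKM), the uncharacterised LOC100507053 (0.192 to 1.14 FPKM) and HPGD, which degrades prostaglandins (6.62 to 14.5 FPKM). The largest falls outside the lists were PHF24 (0.613 to 0.0959 FPKM), PGM5 (1.15 to 0.181 FPKM), ATP8B3 (4.79 to 1.07 FPKM), CNTNAP2, a neuronal adhesion protein (1.35 to 0.319 FPKM), and PRG2 (2.11 to 0.540 FPKM). PHF24 was under 1 FPKM in both groups. TSLP, a cytokine of epithelia, fell from 1.32 to 0.368 FPKM. KIF5C, a neuronal motor, fell from 5.35 to 1.65 FPKM and CACNG7, a calcium channel subunit, from 1.78 to 0.551 FPKM. RAB3A (25.3 to 10.3 FPKM) and UNC13A (18.3 to 9.57 FPKM), which serve the release of vesicles, fell as well. RAB3A and UNC13A have called neighbours that fell.

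**Figure D4:**
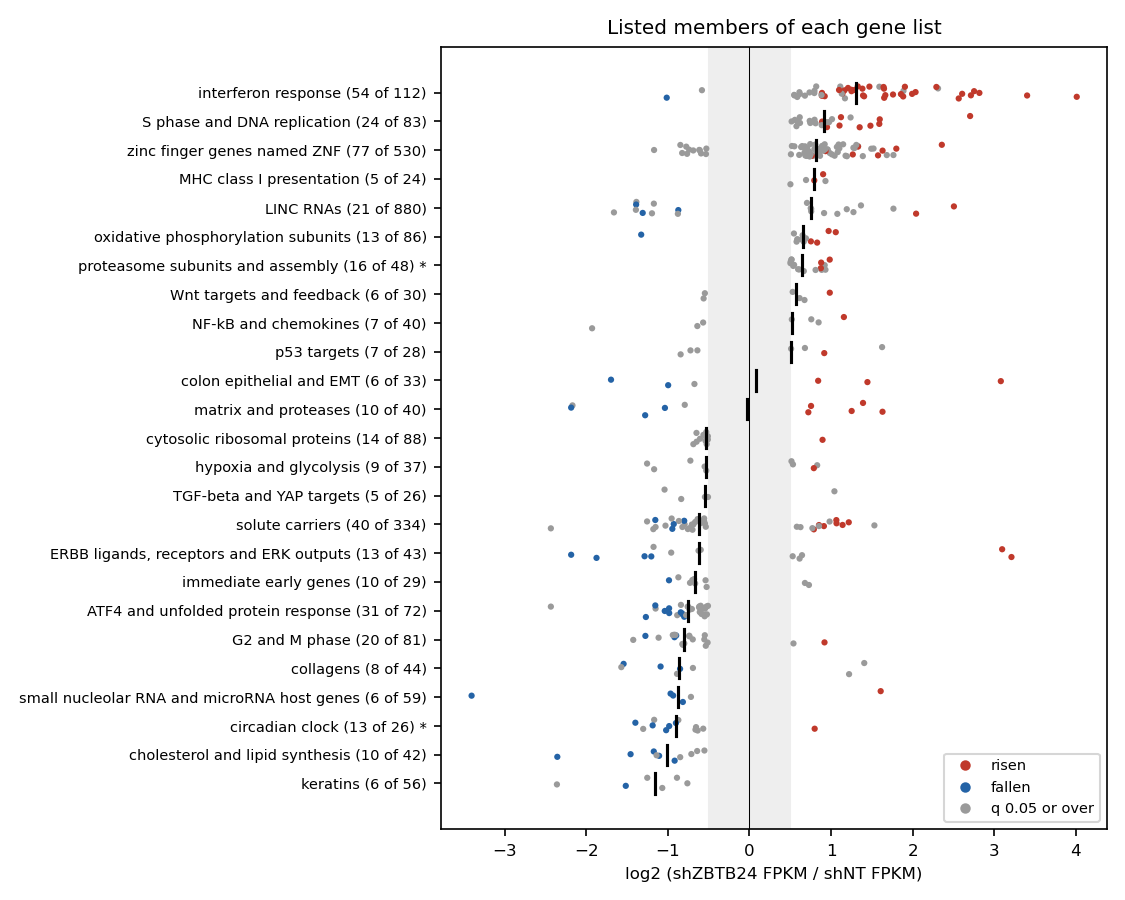
Log2 of shZBTB24 over shNT for every listed member of each list with at least 5 listed loci, small RNA genes left out, 1 point per locus, with listed and annotated numbers in brackets and a black bar at the list's median. Red points rose, blue points fell, the grey band is the authors' filter on fold change, and an asterisk marks lists chosen after the values were seen; the interferon list has the highest median of the lists shown, 1.31.

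Called loci were also described by position. In hg19, 35 pairs of called loci lay within 100000 bp of each other. In 17 pairs both rose, in 13 both fell and in 5 they differed in direction. No share among all neighbouring listed loci is at hand to set beside these counts, and several pairs belong to the same gene family. Risen neighbours were IFIT2, IFIT3 and IFIT1 on chromosome 10, OAS1 and OAS3 on chromosome 12, RSAD2 and the locus of CMPK2 and NRIR on chromosome 2, and PARP9 and DTX3L on chromosome 3, whose spans overlap. MT2A and MT1E on chromosome 16, FAM111A and FAM111B on chromosome 11 and KLK5, KLK6 and KLK10 on chromosome 19 were others. Fallen neighbours were BRSK1, COX6B2 and UBE2S, and MAST3 and RAB3A on chromosome 19, TRIB3 and RBCK1 on chromosome 20, and CLMN, LINC00341 and SYNE3 on chromosome 14. IRF7 rose while DRD4, 21305 bp away on chromosome 11, fell.

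ZBTB24 binding was taken from the authors' merged list of 6173 peaks from FLAG-ZBTB24 lines, with a peak counted at a promoter where its midpoint lay within 1000 bp of a transcript start. Such a peak was found at 15 of 240 risen loci (6.25%, 95% Wilson interval 3.82% to 10.1%), at 10 of 193 fallen loci (5.18%, 2.84% to 9.27%) and at 99 of 1532 listed loci that were not called (6.46%, 5.34% to 7.81%). The intervals cover counting error only, and all 3 overlap, which does not by itself show that the shares are alike. Annotated loci that were not listed had a share of 3.77% (3.54% to 4.02%), and many of these may not be expressed. Most risen and fallen loci thus had no peak at the promoter. By the authors' peak score, the called loci with the highest-scoring peaks were HOXB7 (34.6, chr17:46688045-46688608), IFIH1 (25.9, chr2:163175506-163176005), SESN1 (18.8), MSMO1 (17.3), the locus of CIT and MIR1178 (14.3), OAS3 (14.0, chr12:113375862-113376296), CREB3L2 (13.2), PSMA3 (12.8), RNF43 (12.0) and ATP8B3 (11.8), with coordinates in hg19. Of these 10, HOXB7, IFIH1, SESN1, OAS3, PSMA3 and RNF43 rose and the other loci fell. Among the interferon response loci that rose, IFIH1 and OAS3 were the 2 of 35 with such a peak (5.71%, 1.58% to 18.6%).

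Of 10 genes reported as ZBTB24 targets in other work, 4 were listed and 0 called in the authors' deposited table. An unadjusted p under 0.05, which nearly all listed loci had, was found for 3 of them. CAMKMT (6.68 and 10.8 FPKM) and AXIN2 (2.10 and 3.35 FPKM) were higher, and ARID5B (6.32 and 4.28 FPKM) and RNF169 (13.4 and 9.01 FPKM) were lower. All 4 had a promoter peak, with authors' scores of 36.4, 23.5, 30.4 and 22.8. Those reports may rest on some of these libraries, so the list is not independent. The letters AGGACCT, part of the motif known for ZBTB24, were searched on both strands in the same promoters. They were in 8 of 89 listed loci with a ZBTB24 promoter peak (8.99%, 95% Wilson interval 4.63% to 16.7%), in 31 of 1345 without one (2.30%, 1.63% to 3.25%) and in 3.98% of all promoters. Among called loci with a peak OAS3 was the 1 with these letters, and its stretch from 90 bases before the start to the start is printed again with them in capitals, beside the promoter of ARID5B (chr10:61901449-61901748, plus strand, GRCh38.p14).
OAS3: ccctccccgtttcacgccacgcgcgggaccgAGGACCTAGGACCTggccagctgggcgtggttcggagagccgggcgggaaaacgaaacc
ARID5B: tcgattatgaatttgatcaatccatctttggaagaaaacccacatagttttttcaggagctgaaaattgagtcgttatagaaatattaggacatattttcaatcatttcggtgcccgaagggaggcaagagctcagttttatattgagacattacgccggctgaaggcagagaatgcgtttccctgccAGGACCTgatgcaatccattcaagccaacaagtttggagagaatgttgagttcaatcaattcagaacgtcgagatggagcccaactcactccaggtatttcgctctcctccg
In OAS3 the letters occur 2 times in direct succession, and in ARID5B they occur 1 time.

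DNMT3B peaks, from the authors' merged list of 15909, had a midpoint inside the span of 92 of 240 risen loci (38.3%, 95% Wilson interval 32.4% to 44.6%) and 54 of 193 fallen loci (28.0%, 22.1% to 34.7%). The share was 33.7% (31.4% to 36.2%) of listed loci that were not called and 21.7% (21.1% to 22.2%) of annotated loci that were not listed. The unlisted loci have shorter spans, with a median of 19053.5 bp against 28751 bp for uncalled listed loci, and many may not be expressed. At or over the median span of listed loci, the share was 44.3% of listed and 36.5% of unlisted loci. The share of risen loci was the higher, although fallen loci have the longer spans, with a median of 32728 bp against 24706 bp. Their intervals overlap, which does not show that the shares are alike, and the difference was not tested. Of the 35 risen interferon response loci 13 held a DNMT3B peak (37.1%, 23.2% to 53.7%), close to the share of the other 205 risen loci (38.5%, 32.1% to 45.4%).

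Transcript length moved with the direction of change. The median longest annotated transcript was 3118.5 nt for risen, 4005 nt for fallen and 3335 nt for uncalled loci. In 3 bins of near-equal size by that length, 64.1% of the short, 56.6% of the middle and 44.3% of the long listed loci were higher, with 89, 85 and 66 risen and 47, 61 and 85 fallen. The median G+C of the RefSeq promoters was 61.7% for risen and 68.7% for fallen loci. Short-transcript groups that were higher in most or all listed loci were metallothioneins (median 462.5 nt, 2 loci), histones (588.5 nt, 2 loci), subunits of oxidative phosphorylation (805 nt), HOX genes (1690.5 nt, 2 loci) and proteasome genes (1695 nt). Ribosomal protein loci (1145 nt) and keratins (1957.5 nt) were short too and mostly lower. The interferon response loci (3559 nt) and S phase loci (3490 nt) were longer than the risen loci as a whole, and the ATF4 (4005 nt) and sterol and lipid loci (6324 nt) were as long as or longer than the fallen loci. The part that length or G+C has in these results was not tested.

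**Figure D5:**
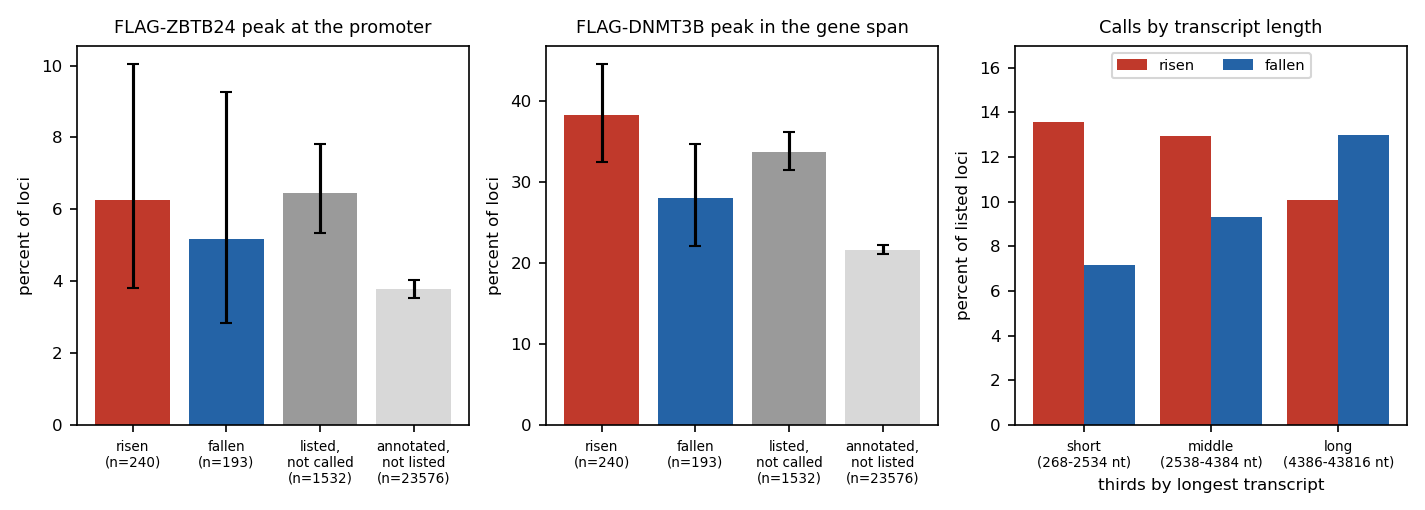
Bars give the percent of risen, fallen, listed but uncalled, and annotated but unlisted loci with a FLAG-ZBTB24 peak at the promoter (left) and a FLAG-DNMT3B peak in the gene span (middle), with 95% Wilson intervals. The bars on the right give the percent of listed loci that rose or fell in 3 bins of the longest transcript, where risen loci go from 13.6% to 10.1% and fallen loci from 7.18% to 13.0%.

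The values of the same loci in the other expression tables come from other control libraries. Of the 240 risen loci 63 were listed for FLAG-ZBTB24 against the tag alone, 48 of them lower and 15 higher, and 4 fell there by the authors' q. Of the 193 fallen loci 47 were listed, 27 lower and 20 higher, and 0 were called in the authors' deposited table. Of all 1965 loci 372 were listed there, 238 lower and 134 higher, so lower values prevailed among shared loci of every class. Over all 1754 loci listed for the FLAG lines, 924 (52.7%) were lower. Among uncalled shared loci, 91 of 134 that were higher with the knockdown were lower there, and 72 of 128 that were lower with it. The 4 that rose with the knockdown and fell with added FLAG-ZBTB24 were IFI27 (101 to 19.3 FPKM in the FLAG lines), MT1E (261 to 41.6 FPKM), MT2A (618 to 145 FPKM) and HPGD (14.0 to 1.5 FPKM). Of the 54 listed interferon response loci 21 were listed in the FLAG lines, 20 of them lower and 1, EPSTI1, higher, and IFI27 was the 1 that fell in the authors' deposited table. The FLAG lines are clones, so differences between clones stay with those groups. Other lists had few loci there. Of the S phase list 0 were listed, of the sterol and lipid list 7 (5 higher), of the ATF4 list 5 (4 lower), of the immediate early genes 5 (5 lower) and of the keratins 4 (4 lower).

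For the DNMT3B knockout there was 1 library per group and no replicate check, and the 2243 rows under its name are all higher than wild type. The 1112 lower rows carry a label that matches no sample and were not used, so direction in these rows is fixed and only presence is described. They held 66 loci that rose with the knockdown (27.5% of 240), 59 that fell (30.6% of 193) and 379 of all 1965 listed loci (19.3%). Of the interferon response loci they held 50 of 54. As 35 of the 54 rose with the knockdown, these make up a large part of the 66. With so few of the 54 absent, the share among the other risen loci was below 27.5% and also below the 19.3% of all listed loci. Of the 50, 3 had q under 0.05 in the authors' deposited table. The 3 were OAS3 (8.29 FPKM in the wild-type library, 150.3 FPKM in the knockout library), ISG15 (35.1 and 867 FPKM) and the locus of IFITM1 and IFITM2 (182 and 1641 FPKM). DHRS2, a dehydrogenase, was the 1 locus that fell with the knockdown (27.8 to 14.8 FPKM) and was called there, higher, at 20.6 and 2833 FPKM.

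The loci at the edges of the rules are given for scale, with no test. The listed loci nearest the fold limit were RRS1 (21.0 and 29.7 FPKM, log2 fold change 0.50) and FGFR3 (9.47 and 6.70 FPKM, -0.50). Just inside the q threshold lay ELF5, NAE1 and NEK10 (q = 0.0498 in the authors' deposited table), and just outside it COL13A1, CRKL and DHRS11 (q = 0.0509 in the authors' deposited table). COL13A1 was at 18.9 and 10.2 FPKM and NAE1 at 28.6 and 49.7 FPKM. The smallest p that the authors' deposited table holds, 5e-05, is shared by 166 loci with q = 0.00493, of which 107 rose and 59 fell, so these loci have no order among themselves by p.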

How the data were processed

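Per the labels' protocols, total RNA was taken with Trizol and made into stranded libraries. HISAT2, StringTie, Cufflinks, MACS2 and hg19 are named in the submitters' processing notes, with no versions. The authors deposited 1 FPKM value per group and locus, pooled over libraries, with a log2 fold change and a p-value and q-value of their own test. They also deposited a transcript annotation in hg19 and merged peak lists per factor with a score whose kind is not given. Tables may have been normalized separately, so no test was made across them, and 1112 rows of the knockout table with a label that matches no sample were not used.

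From these files the log2 ratio was recomputed and a locus was called at the authors' q under 0.05. No p-value was computed here, because no value per library was at hand and depth is unknown. Peaks were assigned to promoters within 1000 bp of a transcript start or to gene spans, and shares carry 95% Wilson intervals. Promoters were matched by symbol to RefSeq on GRCh38.p14 and searched for motif letters, while gene positions and peaks stay in hg19. The counting steps were tested on simulated data. Python 3.11.15, pandas 2.3.3, numpy 2.4.6, matplotlib 3.10.9 and statsmodels 0.14.6 were used.

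The loci and the gene lists were chosen with earlier results of these data known, and the clock, kallikrein and proteasome lists after their values were seen. By rule the text names the 15 largest rises and falls at 1 FPKM or more, up to 5 members per list and role by fold change, DNA methylation genes, up to 10 called loci by peak score, loci at the thresholds, neighbouring called loci and loci also called in another table. Not all of these are printed, some are not reported here, and the other genes named were chosen after their values were seen. Alternatives were other q thresholds, a fold minimum, an FPKM minimum, pseudocounts, loci with 1 symbol, peak distance and peak score.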

Additional observations from a re-analysis of the deposited data

How the results depend on the processing

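No paired analysis was possible because the deposited values are pooled over the libraries of each group, and for the same reason no library could be left out in turn. The counts depend on the threshold. With q from the authors' deposited table under 0.01, 118 loci rose and 64 fell, at q under 0.10 it was 393 and 305, at unadjusted p under 0.05 it was 1052 and 855, and with at least 2-fold change it was 149 and 116. At q under 0.10 the list counts became 15 fallen for ATF4 and the unfolded protein response, 7 fallen for G2 and M phase and 22 risen for ZNF genes. At unadjusted p under 0.05 they became 24 risen for S phase, 31 fallen for ATF4, 10 fallen for sterol and lipid genes, 18 fallen for G2 and M phase and 64 risen for ZNF genes. These are nearly all the listed members in that direction, because the authors' filter left few loci with a higher p. ZBTB24 promoter peaks were at 3.75% of risen loci within 500 bp and at 3.33% with peaks at or above the median score, and at 9.84% of fallen loci within 5000 bp. DNMT3B peaks at or above the median score were in 24.6% of risen and 18.1% of fallen loci. The other 29 summary values moved by less than 1.5 times or by less than their interval. With 0.1 or 1 FPKM added to both groups, 22 of 60 fold changes of single genes moved by over 1.5 times. Adding the same value to both groups cannot change a sign, so direction was not checked by this. Rises of genes at low control levels shrank, as for ELF5, from 3.08 to 2.34 and 0.85 (log2). Pooled FPKM carry no depth, so the precision of low values is unknown.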

Other observations

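Control levels of interferon response genes in the 3 control groups are set side by side here as values only, with no test across tables. OAS1 was at 3.13 FPKM in shNT, 4.47 FPKM in the FLAG-only lines and 0.0249 FPKM in the wild-type library. IFI27 was at 61.7, 101 and 0.521 FPKM in the same order, and BST2 at 58.5, 39.4 and 2.22 FPKM. The locus of IFI44 and IFI44L was at 2.94, 5.09 and 0.0304 FPKM. Not every member was low in the wild-type library. By the values given above, OAS3 was higher there than in shNT, and the locus of IFITM1 and IFITM2 was close to its shNT level. The wild-type values come from the 2243 knockout rows, all higher in the knockout library, so listing itself favours loci that were low in wild type. The FLAG-only values come from listed loci too, and 20 of 21 interferon response loci listed there were lower with FLAG-ZBTB24. FLAG-only was thus mostly the higher side. The wild-type cells had neither lentivirus nor puromycin, and the part of virus, drug or listing in these levels was not tested.

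Several further loci outside the lists that rose serve immune signalling or cell death, and they were picked after their values were seen. MYD88, the adaptor of Toll-like receptors, rose from 6.84 to 16.9 FPKM, and IKBKE, a kinase of IRF proteins, from 0.443 to 1.23 FPKM. BATF2, a transcription factor, rose from 3.85 to 10.3 FPKM and MLKL, which carries out necroptosis, from 2.26 to 6.15 FPKM. Among the fallen loci picked in the same way were SYT1, the calcium sensor of vesicle release (13.5 to 5.24 FPKM), and NGFR, a neurotrophin receptor (13.2 to 5.04 FPKM).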
